A study of Mus musculus with 2 samples.

Results

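The 5 genes Cd226, Tigit, Cd96, Pvr and Nectin2 code for a set of lymphocyte receptors and the surface ligands that they share, and they were described here in single cells from mouse melanomas. They are 5 of the 32285 genes that the matrices list. The set was chosen from the values themselves, namely the raw transcript counts of these genes in gated T, NK, myeloid and melanoma cells and their difference between the knockdown and the control library. Levels and ratios below are therefore a description, with no test. Tumours of B16.SIY, a melanoma line of the mouse that carries a model antigen, had grown under the skin of B6 mice for 14 days, and live CD45+ cells were sorted from them. In both groups the tumour cells had been transduced by lentivirus and kept in 1.5 µg/mL puromycin for 3 days. The construct was a control shRNA in the control group and an shRNA against Decr2, a peroxisomal enzyme of unsaturated fatty acid breakdown, in the knockdown group. There was 1 library in each group, and the sources used here give neither the number, age or sex of the mice nor the number of hairpins. The shRNA was in the tumour cells, so the immune cells of both groups came from hosts without it.

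CD226 (also called DNAM-1) is an activating receptor of T and NK cells, and it works with the integrin LFA-1 at the contact with a target cell. TIGIT and CD96 bind the same ligand family. TIGIT is an inhibitory receptor that competes with CD226 for ligand, and CD96 is mostly described as inhibitory in mouse NK cells and as costimulatory in some T cell settings. PVR (CD155) is the ligand of all 3 receptors in the mouse. Nectin-2 (CD112) is an adhesion molecule of epithelial, myeloid and tumour cells that binds CD226 and, more weakly, TIGIT.

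Tigit (ENSMUSG00000071552, GRCm38, 43648867 to 43664146) and Cd96 (ENSMUSG00000022657, 46035657 to 46120251) lie on the minus strand of chromosome 16, 2371510 bases apart. Pvr (ENSMUSG00000040511, 19903578 to 19921160) and Nectin2 (ENSMUSG00000062300, 19716644 to 19750483) lie on the minus strand of chromosome 7, 153094 bases apart. Of the 5 members, 3 matched the promoter table. The 250 bases before their RefSeq start sites are shown because they set Tigit and Cd96, found in lymphocytes, beside Nectin2, found in melanoma cells. Sequences are from RefSeq on GRCm38.p6, written 5′ to 3′ on the gene's strand. They span chr16:43664185-43664434, chr16:46120249-46120498 and chr7:19749574-19749823. The Nectin2 window lies inside the gene interval given above, so that interval and the RefSeq start site place the start of Nectin2 differently. Capitals mark matches, on either strand, to 5 searched motifs.
Tigit: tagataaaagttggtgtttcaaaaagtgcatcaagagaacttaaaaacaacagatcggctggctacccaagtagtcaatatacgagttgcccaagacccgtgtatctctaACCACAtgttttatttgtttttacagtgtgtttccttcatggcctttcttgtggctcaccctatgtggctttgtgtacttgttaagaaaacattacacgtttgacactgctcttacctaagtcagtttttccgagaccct
Cd96: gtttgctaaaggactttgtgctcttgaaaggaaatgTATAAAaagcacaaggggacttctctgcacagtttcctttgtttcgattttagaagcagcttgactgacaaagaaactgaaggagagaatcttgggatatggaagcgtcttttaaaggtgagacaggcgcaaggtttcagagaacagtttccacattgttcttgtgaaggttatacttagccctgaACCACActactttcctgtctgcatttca
Nectin2: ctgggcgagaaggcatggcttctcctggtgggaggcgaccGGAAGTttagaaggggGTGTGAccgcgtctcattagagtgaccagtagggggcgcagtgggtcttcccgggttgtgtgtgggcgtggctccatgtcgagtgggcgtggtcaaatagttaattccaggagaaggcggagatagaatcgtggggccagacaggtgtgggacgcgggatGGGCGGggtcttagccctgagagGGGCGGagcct
The Tigit and Cd96 windows each held 1 RUNX core (TGTGGT, found on the minus strand as ACCACA), at 140 and 28 bases before the start. This core is in 14.0% of all 32851 promoter windows of the same length. The Cd96 window also held a TATA box core (TATAAA, in 12.4% of windows), 214 bases before the start. The Nectin2 window held 2 GC boxes (GGGCGG, 32.7%), 1 ETS core (GGAAGT, 19.7%) and 1 T-box core (TCACAC, 12.3%, on the minus strand as GTGTGA). No 2 of these matches overlapped. Nectin2 had 16 CpG dinucleotides, Tigit 5 and Cd96 3, against a median of 6. The G and C content was 62% for Nectin2, 40% for Tigit and 41.2% for Cd96. A match describes letters only, and no binding data were used here.

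Transcripts were counted as unique molecular identifiers (UMIs, 1 per captured molecule). The deposited barcodes numbered 11335 (control, 47538493 UMIs) and 9542 (knockdown, 55417986 UMIs), and 8950 and 6897 of them were kept as cells. The libraries shared 34 barcodes. The median depth of the cells was 2877.5 UMIs for control and 4443 UMIs for knockdown, and the knockdown cells were the deeper ones in every immune class compared. Melanoma cells went the other way, with medians of 35445 and 3137 UMIs. Decr2, the targeted gene, had 20 UMIs in control melanoma cells and 10 in knockdown melanoma cells, a ratio of 0.574 (0.240 to 1.28), so its lowering was not detectable at this depth. Each cell was placed in a class by UMIs of marker genes, none of them a member. That placed 81.98% of control cells and 80.6% of knockdown cells, and 11 classes with at least 50 cells in each library were compared. Levels are CPM, the summed UMIs of a gene in a class scaled to a common total of UMIs in that class, with exact 95% Poisson intervals. Ratios are knockdown to control with exact conditional binomial 95% intervals. All intervals cover counting error only, not the spread between tumours, which 1 library per group cannot show. Counts come from the 3′ ends of transcripts, so levels are compared between cells and not between genes.

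The receptors were found mainly in T and NK cells. T and NK classes held 85.8% of all control and 82.9% of all knockdown Cd226 UMIs. Their share was 86.5% and 83.1% for Tigit, and 86.0% and 87.1% for Cd96. Most of the rest lay in cells with no class, which held between 11.4% and 14.8% of each receptor's UMIs. B cells, which mostly lack these receptors, had 0 and 1 Cd226 UMIs in 274 control and 199 knockdown cells, 1 and 1 Cd96 UMIs, and 0 and 0 Tigit UMIs. A count of 0 allows a share of up to 1.09% and 1.51% of B cells with a Tigit UMI at this depth, which does not limit the share of cells that express the gene. The B cell levels of Cd226 and Cd96, at most 2.21 CPM, were far below those of most T and NK classes, while for Tigit the few B cell UMIs allow up to 8.16 CPM in the control library, above the NK level.

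**Figure D1:**
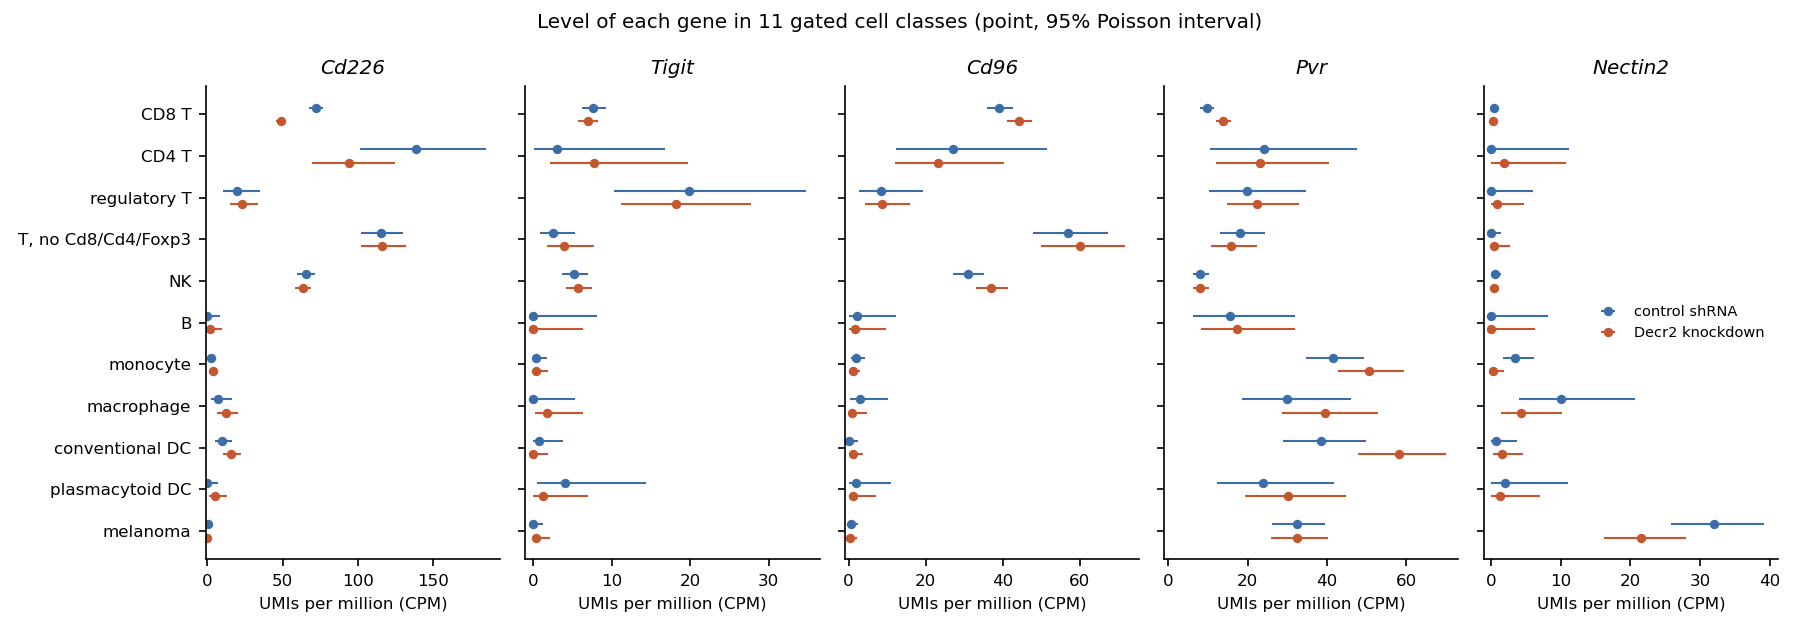
Level of each of the 5 genes (x axis, CPM, a separate scale per gene) in 11 cell classes (y axis) in the control (blue) and knockdown (orange) library, with 95% Poisson intervals. Cd226, Tigit and Cd96 are highest in T and NK cells, with some Cd226 in conventional dendritic cells (9.60 and 15.7 CPM) and macrophages (7.15 and 12.3 CPM), Pvr is found in every class, and Nectin2 is highest in melanoma cells.

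Cd226 (ENSMUSG00000034028, chromosome 18, 89176967 to 89272229, plus strand, GRCm38) was highest in T cells in which no Cd8a, Cd8b1, Cd4 or Foxp3 UMI was found, and in CD4 T cells. The first class had 281 UMIs in 916 control cells and 236 UMIs in 513 knockdown cells, 115.5 (102 to 130) and 116.4 (102 to 132) CPM. These cells held gamma delta T markers at 387 and 432 CPM summed over Trdc, Tcrg-C1 and Tcrg-C2, and NK markers at 610 and 569 CPM, so the class was a mixture. It is also set by UMIs that were not found, at median depths of 2456 and 3910 UMIs. CD8 T and CD4 T cells whose Cd8 or Cd4 transcripts were missed can thus be in it, and their number was not tested. The class made up 10.2% of control and 7.44% of knockdown cells. CD4 T cells had 46 and 49 Cd226 UMIs, 139 (102 to 185) and 94.5 (69.9 to 125) CPM. The intervals of these leading classes overlapped in both libraries. NK cells followed at 65.3 (59.7 to 71.3) and 63.3 (58.1 to 68.9) CPM, from 505 and 538 UMIs. CD8 T cells were at 72.0 (67.5 to 76.7) CPM from 956 UMIs in control cells and at 48.7 (45.4 to 52.2) CPM from 809 UMIs in knockdown cells. NK and CD8 T cells thus overlapped in the control library and not in the knockdown library. This was over cells of all depths, and CD8 T cells were deeper than NK cells. Among cells under 3000 UMIs, CD8 T cells were at 135 (112 to 161) and 144 (78.6 to 241) CPM. NK cells of that depth were at 72.2 (64.4 to 80.7) and 60.0 (48.4 to 73.6) CPM. From 3000 to 6000 UMIs, CD8 T cells were at 98.0 and 85.0 CPM and NK cells at 57.6 and 70.0 CPM. The place of CD8 T cells in this order thus depended on depth. Regulatory T cells had the lowest Cd226 level of the T cells, 19.9 (10.3 to 34.8) and 23.3 (15.4 to 34.0) CPM. Among other cells, macrophages had 5 and 14 Cd226 UMIs and melanoma cells 2 and 0.

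Within the T cells without Cd8, Cd4 or Foxp3, Cd226 was found in both the gamma delta part and the rest. Cells with a Trdc or Tcrg-C UMI were at 123 and 145 CPM, and cells without one at 113 and 105 CPM. Cd96 was at 44.7 and 63.4 CPM in the first group and at 61.7 and 57.1 CPM in the second. The knockdown to control ratio of Cd226 was 1.18 (0.847 to 1.64) and 0.934 (0.742 to 1.17) in the 2 groups, and both intervals included 1.

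Tigit was the member with the fewest UMIs among the receptors and had its highest level in regulatory T cells. It had 12 UMIs in 121 control and 21 in 146 knockdown regulatory T cells, 19.9 (10.3 to 34.8) and 18.2 (11.2 to 27.7) CPM. CD8 T cells followed with 101 and 115 UMIs, 7.61 (6.20 to 9.24) and 6.93 (5.72 to 8.32) CPM. The regulatory T intervals lay above the CD8 T intervals in both libraries. NK cells had 40 and 48 Tigit UMIs, 5.17 (3.70 to 7.05) and 5.65 (4.17 to 7.49) CPM, and their intervals overlapped those of CD8 T cells. T cells without Cd8, Cd4 or Foxp3 had 6 and 8 UMIs, and CD4 T cells 1 and 4.

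Cd96 was highest in the T cells without Cd8, Cd4 or Foxp3, at 57.1 (48.0 to 67.4) and 60.2 (49.98 to 71.9) CPM from 139 and 122 UMIs. CD8 T cells had 520 and 735 UMIs, 39.2 (35.9 to 42.7) and 44.3 (41.1 to 47.6) CPM. NK cells had 239 and 314 UMIs, 30.9 (27.1 to 35.1) and 37.0 (33.0 to 41.3) CPM. The CD8 T intervals lay above the NK intervals in the control library and overlapped them, by a narrow margin, in the knockdown library. CD4 T cells had 9 and 12 Cd96 UMIs, and regulatory T cells 5 and 10 (8.29 and 8.64 CPM). Regulatory T cells therefore stood apart from CD8 T cells by lower Cd226 and Cd96 levels and a higher Tigit level. There was no overlap of these CPM intervals in either library. For Tigit this did not hold for the share of cells with a UMI at equal depth, given below.

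The share of cells with a receptor UMI depends on depth, so cells were also thinned to 2000 UMIs each, which left out shallower cells. Of CD8 T cells, 1622 control and 1320 knockdown cells remained and 116 and 18 were left out. A Cd226 UMI was then found in 15.5% (13.8 to 17.4) of the control cells and 11.1% (9.42 to 12.9) of the knockdown cells, and the intervals did not overlap. Without thinning the shares were 32.8% and 32.4%, at median depths of 5518.5 and 9321.5 UMIs. Thinned to 4000 UMIs they were 22.1% (19.7 to 24.6) and 16.2% (14.1 to 18.4). Thinning makes the number of UMIs equal but leaves cells of different original depth side by side. The Cd226 level of CD8 T cells fell with original depth, as given below. How much of the difference in thinned shares goes with it was not tested. For Cd96 the thinned shares of CD8 T cells were 6.84% (5.66 to 8.18) and 8.94% (7.46 to 10.6), and the unthinned ones 23.8% and 37.4%. For Tigit they were 1.73% (1.15 to 2.49) and 1.67% (1.05 to 2.51), against 5.24% and 8.07% without thinning.

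In NK cells, thinning left 2048 control and 2006 knockdown cells and left out 795 and 116. A Cd226 UMI was found in 10.5% (9.20 to 11.9) and 11.7% (10.3 to 13.2) of them, a Cd96 UMI in 4.83% (3.95 to 5.85) and 6.38% (5.35 to 7.54), and a Tigit UMI in 1.17% (0.752 to 1.74) and 0.997% (0.610 to 1.54). The unthinned shares of NK cells, at median depths of 2447 and 3551 UMIs, were 13.8% and 18.3% for Cd226, 7.60% and 12.5% for Cd96, and 1.37% and 2.26% for Tigit. In B cells, at median depths of 1556.5 and 2553 UMIs, the unthinned shares were 0% and 0.503% for Cd226, 0.365% and 0.503% for Cd96, and 0% for Tigit in both libraries. The thinned B cell shares rest on 46 and 178 cells and were at most 0.562% for any receptor. The thinned Tigit share of T cells without Cd8, Cd4 or Foxp3 was 0.451% (0.0931 to 1.31) and 0.875% (0.239 to 2.23). After thinning, the Tigit intervals of these cells, of CD8 T cells and of NK cells all overlapped those of B cells (up to 7.71% and 2.05%). These shares could thus not be told from the B cell background. Of thinned regulatory T cells, 5 of 103 control cells (4.85%, 1.59 to 10.97) had a Tigit UMI. In the knockdown library it was 6 of 135 (4.44%, 1.65 to 9.42). The regulatory T intervals also overlapped those of B cells and of CD8 T cells in both libraries.

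**Figure D2:**
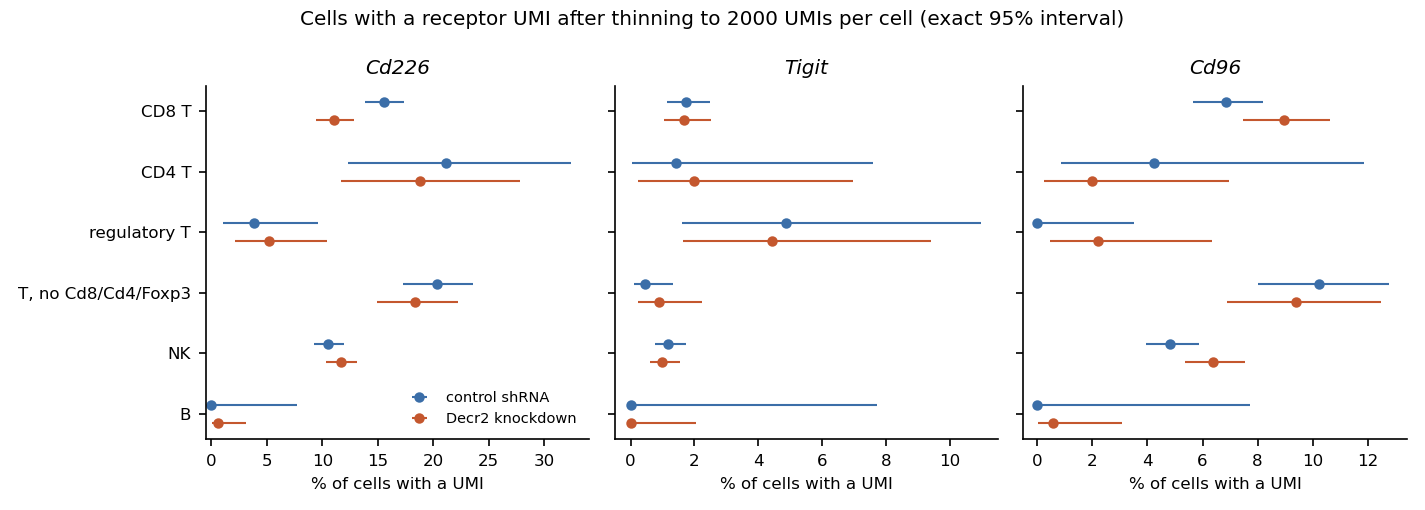
Percent of cells with at least 1 UMI of Cd226, Tigit or Cd96 (x axis) in T, NK and B cells (y axis) after thinning every cell to 2000 UMIs, with exact 95% intervals. The CD8 T intervals of the control (blue) and knockdown (orange) library do not overlap for Cd226 (15.5% and 11.1%). The knockdown cells were deeper before thinning.

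Few CD8 T cells held UMIs of a pair of receptors, and their number was close to the product of the single shares. In CD8 T cells thinned to 4000 UMIs, 37 of 1118 control cells held both Cd226 and Cd96 (3.31%, 2.34 to 4.53, against a product of 3.24%). In the knockdown library 38 of 1200 held both (3.17%, 2.25 to 4.32, product 2.92%). Cd226 and Tigit were found together in 8 control cells (0.716%, product 0.771%) and 4 knockdown cells (0.333%, product 0.525%). Tigit and Cd96 were found together in 9 cells (0.805%, product 0.512%) and 10 cells (0.833%, product 0.588%). Every one of these products lay within the interval of its observed share, so at this depth neither joint nor separate use of the receptors by single CD8 T cells was detectable. In NK cells thinned to 2000 UMIs, 15 of 2048 control cells held both Cd226 and Cd96 (0.732%, 0.410 to 1.21, product 0.507%). In knockdown NK cells it was 24 of 2006 (1.20%, 0.768 to 1.77), and the product of 0.744% lay just below this interval. With 4000 UMIs it was 20 of 776 knockdown NK cells (2.58%, 1.58 to 3.95, product 2.49%), where the product lay within the interval.

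The comparison of the knockdown with the control library covered the 22 pairs of a member and a class that had at least 30 UMIs over both libraries. A pair was counted as past the fold at a ratio of 1.5 or more in either direction. Of 4 measured members in CD8 T cells none was past the fold, against 5.67% of all genes measured there, and of 4 in NK cells none, against 5.36%. None of 3 was past it in T cells without Cd8, Cd4 or Foxp3 (8.89% of all genes), none of 3 in regulatory T cells (15%) and none of 1 in CD4 T cells (18.2%). In conventional dendritic cells both measured members were past it, Cd226 and Pvr, against 12.2% of all genes. None of 1 was past it in monocytes (9.61%), none of 1 in macrophages (17.4%), none of 1 in plasmacytoid dendritic cells (14%) and none of 2 in melanoma cells (10.4%). B cells had no measured member (15.6% of all genes past the fold). Just inside the fold was Pvr in conventional dendritic cells (1.51), and just outside it were Nectin2 in melanoma cells (0.671), Cd226 in CD8 T cells (0.677) and Cd226 in CD4 T cells (0.680). These counts used the contrast by which the set was chosen, and nothing is read from them.

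**Figure D3:**
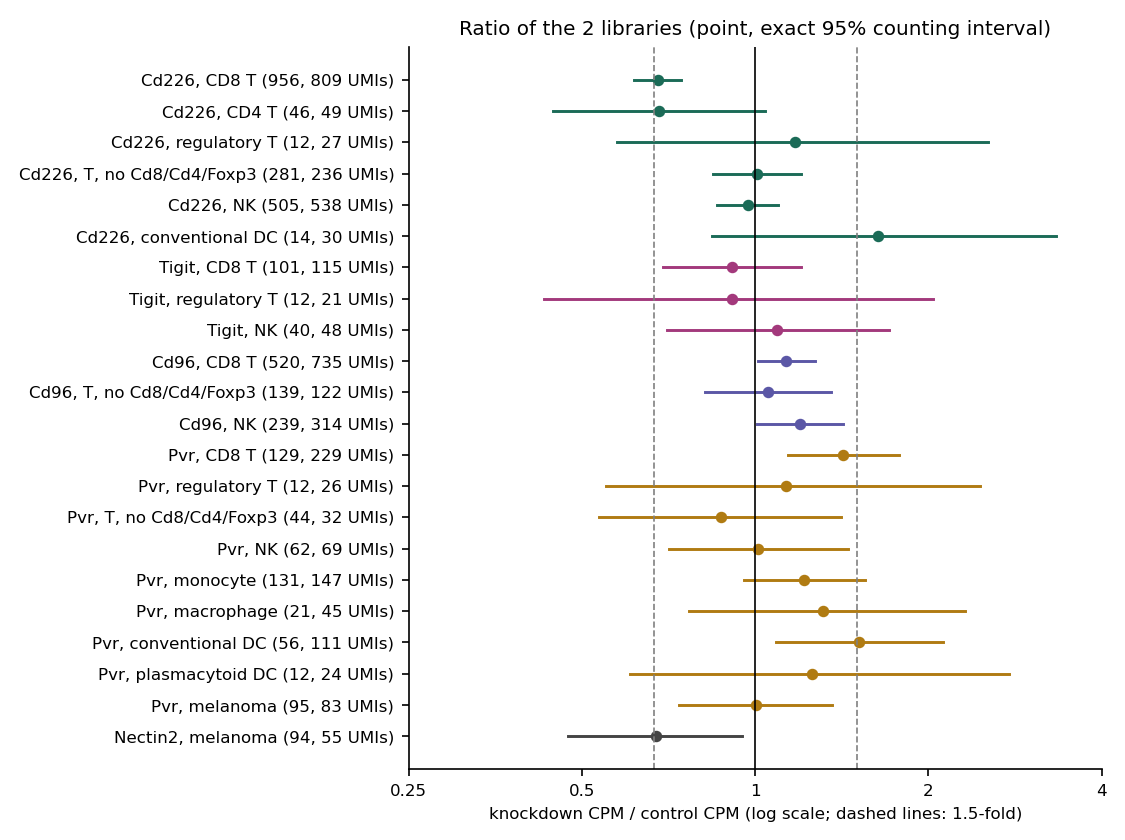
Knockdown to control ratio of CPM (x axis, log scale) for the 22 pairs of a gene and a cell class with at least 30 UMIs, with exact 95% counting intervals and dashed lines at 1.5-fold. The intervals of Cd226 in CD8 T cells and Nectin2 in melanoma cells lie below 1, and those of Pvr in CD8 T and conventional dendritic cells and of Cd96 in CD8 T (1.13) and NK cells (1.20) above 1.

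Cd226 was lower in knockdown CD8 T cells relative to all their transcripts, with a ratio of 0.677 (0.616 to 0.744). Of 10974 genes measured in these cells, 336 (3.06%) had a lower ratio, and the median gene was at 0.989. The number of Cd226 UMIs per CD8 T cell was 0.550 for control and 0.605 for knockdown. The per-cell count was thus no lower, while knockdown CD8 T cells held more UMIs in all. The ratio was 0.970 (0.857 to 1.10) in NK cells and 1.01 (0.844 to 1.20) in T cells without Cd8, Cd4 or Foxp3. Set against NK cells, the CD8 T ratio was 0.698 times as large (0.599 to 0.814), and against T cells without Cd8, Cd4 or Foxp3 0.672 times (0.552 to 0.818). These intervals lay below 1 and cover counting error only. In CD4 T cells the ratio was 0.680 (0.445 to 1.04), with an interval that included 1. The CD4 T value and that of the T cells without Cd8, Cd4 or Foxp3 depended on the gates: with gates set on cells thinned to 1000 UMIs they were 1.06 and 0.68. Beside these values, summed NK markers in the CD8 T class were at 296 and 330 CPM (2 of 4 higher in the knockdown), melanoma markers at 103 and 81.2 CPM (0 of 6 higher), and markers of monocytes at 1180 and 1584 CPM (3 of 6 higher). Mature dendritic markers were at 17.0 and 39.3 CPM (4 of 5 higher), and the CD8 T markers themselves at 1211 and 1038 CPM (0 of 2 higher). The monocyte and mature dendritic lists are not specific to myeloid cells. The mature dendritic list holds Ccr7, which was also listed as a gene of CD8 T states, and its sum in B cells was 790 and 635 CPM. Monocyte markers were at 933 and 878 CPM in NK cells. The part of these markers in the Cd226 ratio was not tested.

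In conventional dendritic cells Cd226 was past the fold on few UMIs. It had 14 UMIs in 245 control cells and 30 in 226 knockdown cells, 9.60 (5.25 to 16.1) and 15.7 (10.6 to 22.4) CPM, a ratio of 1.63 (0.840 to 3.34) with an interval that included 1. The few type 1 cells, marked by Xcr1 and Clec9a, had 4 and 6 Cd226 UMIs in 15 and 19 cells. Their levels were 24.5 (6.67 to 62.7) and 28.1 (10.3 to 61.2) CPM. Cells with neither type's markers ahead had 5 and 16 UMIs, 15.9 (5.17 to 37.2) and 38.0 (21.7 to 61.6) CPM. Type 2 cells had 5 and 8 UMIs, 5.14 and 6.29 CPM. The type 2 intervals overlapped the type 1 intervals in both libraries. They overlapped those of cells with neither type's markers ahead in the control library only. After thinning to 2000 UMIs, the share with a Cd226 UMI went the other way, 2.08% (0.680 to 4.79) and 1.35% (0.280 to 3.90), with overlapping intervals. T cell markers in this class were at 54.9 and 52.3 CPM, and NK markers at 191 and 185 CPM.

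The Cd226 level of CD8 T cells fell with the depth of the cell in both libraries. Control CD8 T cells were at 135 CPM under 3000 UMIs, at 98.0 from 3000 to 6000, at 80.8 from 6000 to 12000 and at 47.2 above that. Knockdown CD8 T cells were at 144, 85.0, 60.2 and 39.0 CPM in the same ranges. The counts per cell rose over these ranges from 0.304 to 0.834 in the control and from 0.298 to 0.846 in the knockdown library. The knockdown to control ratios within the ranges were 1.07 (0.566 to 1.86), 0.867 (0.692 to 1.08), 0.745 (0.627 to 0.883) and 0.827 (0.711 to 0.963). All but the first were below 1, and the intervals of the last 2 left out 1. The first range held 388 control cells and 47 knockdown cells, and the last 343 and 513. With only cells of 3000 to 12000 UMIs the ratio was 0.771, closer to 1 than over all cells. How much of the ratio over all cells goes with depth was not tested beyond these ranges.

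**Figure D4:**
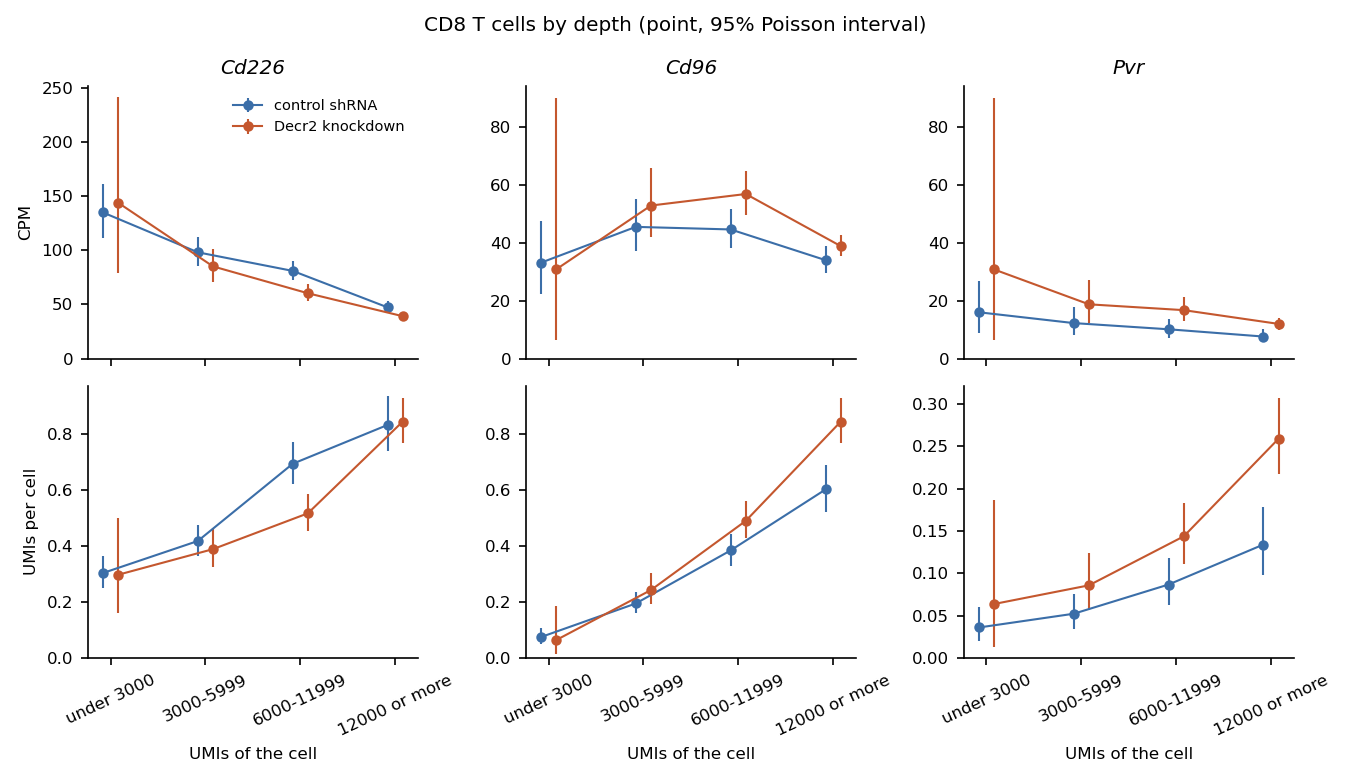
Cd226, Cd96 and Pvr in CD8 T cells by the total UMIs of the cell (x axis), as CPM (upper row) and as UMIs per cell (lower row), with 95% Poisson intervals. The Cd226 CPM falls with depth in both libraries, from 135 to 47.2 in the control (blue) and from 144 to 39.0 in the knockdown (orange), while the UMIs per cell rise.

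Cd96 moved the other way from Cd226 in CD8 T cells. Its ratio was 1.13 (1.01 to 1.27), and its UMIs per cell were 0.299 for control and 0.549 for knockdown. By depth range the ratios were 0.930 (0.181 to 3.00), 1.16 (0.856 to 1.57), 1.27 (1.04 to 1.56) and 1.14 (0.966 to 1.36). In NK cells the Cd96 ratio was 1.20 (1.01 to 1.42), and the CD8 T and NK ratios did not differ beyond counting error (0.946, 0.773 to 1.16). In T cells without Cd8, Cd4 or Foxp3 it was 1.05 (0.819 to 1.35). The Tigit ratio was 0.911 (0.691 to 1.20) in CD8 T cells, 1.09 (0.703 to 1.71) in NK cells and 0.912 (0.429 to 2.03) in regulatory T cells, all with intervals that included 1.

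The balance of the receptors within a class does not depend on how a library is scaled, but in CD8 T cells it moved with the depth of the cell. Control CD8 T cells held 1.84 Cd226 UMIs per Cd96 UMI and knockdown CD8 T cells 1.10, an odds ratio of 0.599 (0.516 to 0.695). From the shallowest to the deepest of the 4 depth ranges, the number went from 4.07 to 1.39 in control and from 4.67 to 1.00 in knockdown cells. The odds ratios within the ranges were 1.15 (0.292 to 6.63), 0.747 (0.510 to 1.09), 0.585 (0.447 to 0.763) and 0.724 (0.575 to 0.910), so the intervals of the 2 deeper ranges lay below 1. Over all depths, CD8 T cells held 9.47 and 7.03 Cd226 UMIs per Tigit UMI, an odds ratio of 0.743 (0.554 to 0.996). Tigit against Cd96 gave 0.806 (0.597 to 1.09). In NK cells the odds ratio of Cd226 against Cd96 was 0.811 (0.655 to 1.00), with an upper bound just above 1, and that of Cd226 against Tigit 0.888 (0.558 to 1.41). In T cells without Cd8, Cd4 or Foxp3, Cd226 against Cd96 gave 0.957 (0.702 to 1.30). Knockdown CD8 T cells thus held fewer Cd226 UMIs for each Cd96 UMI than control CD8 T cells. Such a shift was not detectable in the T cells without Cd8, Cd4 or Foxp3.

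CD8 T cells were divided by the markers found after thinning to 2000 UMIs. The states were cycling cells (UMIs of at least 2 of 6 proliferation genes), and the remaining cells with Pdcd1 and Havcr2, with Pdcd1 alone, or without Pdcd1. Pdcd1 codes for PD-1, and Havcr2 for TIM-3, a marker of more exhausted cells. Cells without Pdcd1 made up 44.6% (control) and 48.7% (knockdown) of them, and cycling cells 28.7% and 27.7%. Cd226 was lower in the knockdown library in each of these states. In cells without Pdcd1 its levels of 80.4 and 57.9 CPM gave a ratio of 0.721 (0.615 to 0.845). In Pdcd1 cells without Havcr2 they were 86.4 and 53.7 CPM, with a ratio of 0.622 (0.505 to 0.764), and in cycling cells 59.2 and 39.8 CPM, with a ratio of 0.672 (0.574 to 0.786). Cells with Pdcd1 and Havcr2 gave 0.726 (0.437 to 1.20), an interval that included 1. Median depth was higher in the knockdown library in every state, for example 3870 against 6284 UMIs in cells without Pdcd1.

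Cd96 was higher in knockdown CD8 T cells that carried Pdcd1 without Havcr2, at 36.6 and 55.7 CPM, a ratio of 1.52 (1.17 to 1.98). For Cd96 this was 1.13 (0.925 to 1.38) in cells without Pdcd1 and 0.939 (0.785 to 1.12) in cycling cells. Cells with Pdcd1 and Havcr2 had 19 and 37 Cd96 UMIs, 35.4 and 56.3 CPM, a ratio of 1.59 (0.892 to 2.93) with an interval that included 1. Tigit had 57 UMIs in control and 40 in knockdown cycling CD8 T cells, a ratio of 0.569 (0.370 to 0.868). In cells without Pdcd1 it had 22 and 37 UMIs (1.21, 0.696 to 2.16), and in Pdcd1 cells without Havcr2 17 and 28 (1.42, 0.748 to 2.76). The intervals of the Tigit levels of all 4 states overlapped within each library.

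**Figure D5:**
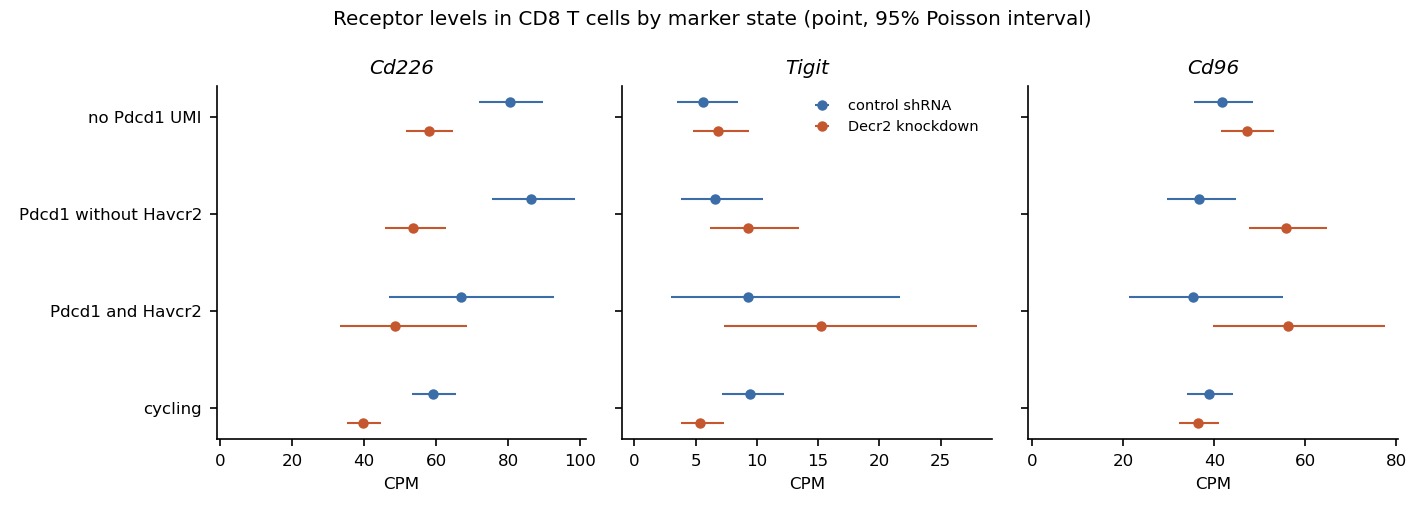
Cd226, Tigit and Cd96 levels (x axis, CPM) in 4 marker states of CD8 T cells (y axis) in the control (blue) and knockdown (orange) library, with 95% Poisson intervals. Cd226 is lower in the knockdown library in each state, and Cd96 is higher in Pdcd1 cells without Havcr2 (36.6 and 55.7 CPM).

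NK cells were divided in the same way, and cycling ones had 12 and 13 Cd226 UMIs (42.1 and 45.7 CPM). Other NK cells with an Xcl1 UMI and no Klrg1, a chemokine-producing group, had 80.8 (70.4 to 92.2) and 75.6 (66.8 to 85.3) CPM. Cells with Klrg1, a receptor of mature NK cells, had 60.5 (41.9 to 84.5) and 65.9 (47.9 to 88.5) CPM. Those with neither had 45.1 (37.7 to 53.6) and 52.6 (45.6 to 60.3) CPM. The Xcl1 intervals lay above those of cells with neither, and the Klrg1 intervals overlapped both, in each library. The ratios between libraries were 0.936 (0.780 to 1.12) in the Xcl1 group, 1.09 (0.680 to 1.76) with Klrg1 and 1.17 (0.931 to 1.46) with neither. In NK cells of 3000 to 6000 UMIs the Cd226 ratio was 1.22 (1.01 to 1.47), in shallower ones 0.830 (0.651 to 1.05) and in those of 6000 to 12000 UMIs 0.909 (0.585 to 1.44). Cd96 was at 30.5 and 38.5 CPM in the Xcl1 group and at 26.0 and 34.3 CPM in cells with neither marker, with ratios of 1.26 (0.955 to 1.68) and 1.32 (0.985 to 1.77). Cells with Klrg1 had 32.0 and 35.9 CPM of Cd96, a ratio of 1.12 (0.584 to 2.19).

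Of the ligands, Pvr was found in every class. T and NK cells held 35.9% of its control and 38.0% of its knockdown UMIs, myeloid cells 32.9% and 36.2%, and melanoma cells 13.4% and 8.57%. The level was highest in myeloid and melanoma cells. Conventional dendritic cells had 56 and 111 Pvr UMIs, 38.4 (29.0 to 49.9) and 58.1 (47.8 to 69.96) CPM. Monocytes had 131 and 147 UMIs, 41.6 (34.7 to 49.3) and 50.6 (42.7 to 59.4) CPM, and macrophages 21 and 45, 30.0 (18.6 to 45.9) and 39.4 (28.8 to 52.8) CPM. Melanoma cells had 95 and 83 UMIs, 32.4 (26.2 to 39.6) and 32.5 (25.9 to 40.2) CPM. The intervals of these neighbouring classes overlapped in the control library. Mature dendritic cells, which had too few cells to be compared, had 13 UMIs in 24 control and 22 in 57 knockdown cells. Their level of 137 (72.7 to 234) CPM lay above all these intervals for control cells, and for knockdown cells it was 56.3 (35.3 to 85.3) CPM. B cells were at 15.5 (6.23 to 31.9) and 17.3 (8.32 to 31.9) CPM, so a low Pvr level was not particular to T and NK cells. CD8 T cells were at 9.72 (8.11 to 11.5) and 13.8 (12.1 to 15.7) CPM, and NK cells at 8.02 (6.15 to 10.3) and 8.12 (6.32 to 10.3) CPM, no higher than B cells, and how much of this was free RNA was not tested.

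Pvr was higher in knockdown conventional dendritic cells, with a ratio of 1.51 (1.09 to 2.12). In the type 2 cells of this class, marked by Cd209a and Clec10a, Pvr had 44 UMIs in 179 control cells and 99 in 160 knockdown cells, 45.2 and 77.9 CPM, a ratio of 1.72 (1.20 to 2.52). The type 1 cells, named above, were 15 and 19 cells with 0 and 3 UMIs. In cells with neither marker pair ahead Pvr had 12 and 7 UMIs, a ratio of 0.435 (0.145 to 1.20). The ratio of the class was 1.11 (0.443 to 2.43) in cells under 6000 UMIs, where the knockdown library had 36 cells, and 1.97 (1.22 to 3.32) in deeper ones. After thinning to 2000 UMIs, a Pvr UMI was found in 7.5% (4.51 to 11.6) of control and 11.7% (7.79 to 16.7) of knockdown conventional dendritic cells, and these intervals overlapped. Markers of monocytes were at 3576 and 3713 CPM in this class (5 of 6 higher in the knockdown), and those of macrophages at 35.0 and 47.6 CPM (3 of 6 higher), and their part in the ratio was not tested.

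The other myeloid classes compared had Pvr ratios above 1 with intervals that included 1. The ratio was 1.22 (0.955 to 1.55) in monocytes, 1.31 (0.766 to 2.32) in macrophages and 1.26 (0.605 to 2.76) in plasmacytoid dendritic cells. In the few mature dendritic cells it was past the fold in the other direction, at 0.412 (0.199 to 0.891). The conventional dendritic ratio was 1.24 times that of monocytes (0.834 to 1.85), so the classes did not differ beyond counting error. In macrophages the summed macrophage markers were at 3101 and 1772 CPM, with 1 of 6 higher in the knockdown, and monocyte markers at 4768 and 5684 CPM, and whether this bears on Pvr was not tested. In CD8 T cells the Pvr ratio was 1.42 (1.14 to 1.78), and it was above 1.5 in each depth range, at 1.93, 1.53, 1.66 and 1.58. The intervals of the 2 deeper ranges left out 1 (1.10 to 2.51 and 1.12 to 2.25). The part in it of the mature dendritic markers given above for the CD8 T class, which include Ccr7, a gene also listed for CD8 T states, was not tested. In NK cells the Pvr ratio was 1.01 (0.708 to 1.45), and the CD8 T ratio was 1.402 times as large (0.935 to 2.10), an interval that included 1.

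Most Nectin2 UMIs lay in melanoma cells in these samples. Melanoma cells, recognised by pigment genes such as Pmel and Dct and present in small number in spite of the CD45 sort, held 69.1% of all control and 59.1% of all knockdown Nectin2 UMIs. They had 94 UMIs in 88 control cells and 55 in 83 knockdown cells, 32.0 (25.9 to 39.2) and 21.5 (16.2 to 28.0) CPM. Of the classes compared, macrophages followed with 7 and 5 UMIs (10.0 and 4.38 CPM), below the melanoma interval in both libraries. Mature dendritic cells, too few to compare, had 2 and 5 UMIs. Their level of 21.0 (2.55 to 75.9) and 12.8 (4.16 to 29.9) CPM overlapped the melanoma interval in both libraries. Monocytes had 11 UMIs in the control library, 45.5% of them in 1 cell, and 1 in the knockdown library. CD8 T cells had 7 and 6 UMIs and NK cells 5 and 4, and B cells had none. The T and NK cells thus held receptor transcripts with almost no Nectin2, while melanoma cells held both ligands and almost no receptor transcript.

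In melanoma cells the knockdown to control ratio was 0.671 (0.472 to 0.946) for Nectin2 and 1.00 (0.738 to 1.36) for Pvr. Nectin2 relative to Pvr changed by 0.670 (0.429 to 1.04), so the 2 ligands did not differ beyond counting error. The Nectin2 ratio rests on few deep cells: 54 control and 30 knockdown melanoma cells had at least 10000 UMIs, and they held 93 of 94 and 50 of 55 Nectin2 UMIs. In the other 34 and 53 cells Nectin2 had 1 and 5 UMIs and Pvr 2 and 7. The direction of the Nectin2 ratio depended on the weight of the deep cells. With every cell thinned to 2000 UMIs it was 1.06, and with equal weight per cell 1.09. In the deep cells alone the Nectin2 level was 32.7 CPM for control and 20.4 CPM for knockdown, which gave a ratio of 0.624 (0.433 to 0.889), while the share of deep cells with a UMI went the other way. Among deep cells thinned to 10000 UMIs, Nectin2 was found in 14 of 54 control cells (25.9%, 14.96 to 39.7) and 11 of 30 knockdown cells (36.7%, 19.9 to 56.1), and Pvr in 27.8% (16.5 to 41.6) and 26.7% (12.3 to 45.9). Both ligands were found in 1 control cell (1.85%, 0.0469 to 9.89, product of the single shares 7.20%) and 6 knockdown cells (20%, 7.71 to 38.6, product 9.78%).

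The related receptors Pvrig and Crtam, which bind Nectin-2 and CADM1, were measured in the lymphocytes. Crtam, a receptor of activated T and NK cells, had 158 and 294 UMIs in CD8 T cells, 11.9 and 17.7 CPM, a ratio of 1.49 (1.22 to 1.82). In NK cells it had 114 and 118 UMIs, a ratio of 0.942 (0.722 to 1.23). Pvrig, an inhibitory receptor, had 54 and 47 UMIs in CD8 T cells, a ratio of 0.696 (0.461 to 1.05), and 77 and 85 in NK cells, a ratio of 1.00 (0.729 to 1.39). Neither was past the fold, against 5.67% of all genes in CD8 T cells and 5.36% in NK cells. Among the other nectins and nectin-like ligands, Cadm1 had 461 and 396 UMIs in melanoma cells (157 and 155 CPM, ratio 0.986, 0.860 to 1.13) and Nectin3 54 and 52 (ratio 1.11, 0.740 to 1.65), while Nectin1 and Nectin4 had none there. In conventional dendritic cells Cadm1, a marker of type 1 cells, was past the fold at 12.3 and 21.5 CPM (ratio 1.74, 0.976 to 3.21), and Nectin1 had 28 and 36 UMIs (0.981, 0.582 to 1.67). Nectin4 was past the fold in monocytes on 12 and 20 UMIs (1.81, 0.841 to 4.06). Of all genes, 12.2% were past the fold in conventional dendritic cells and 9.61% in monocytes.

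None of the genes of the CD226 signal was past the fold in CD8 T or NK cells, where 5.67% and 5.36% of all genes were. Of 10 signalling and adhesion partners measured in CD8 T cells, 6 were higher and 4 lower in the knockdown library, and the median ratio was 1.04 against 0.989 for all genes. Itgal and Itgb2, the chains of LFA-1, had ratios of 1.05 (0.990 to 1.12) and 0.859 (0.815 to 0.907). In NK cells the counts were again 6 and 4, and the median was 1.01, equal to that of all genes. Of 6 inhibitory or turnover partners, 4 were higher in CD8 T cells, among them Inpp5d at 1.24 (1.12 to 1.38) and Ptpn6 at 1.26 (1.17 to 1.36), which code for the phosphatases SHIP-1 and SHP-1. In NK cells 5 of these 6 were higher, with Inpp5d at 1.28 (1.18 to 1.396). None was past the fold in either class. Of all genes, 53.4% had a ratio below 1 in CD8 T cells and 47.8% in NK cells. In melanoma cells Ptpn6 was past the fold, at 33.1 and 53.6 CPM (1.62, 1.24 to 2.12), against 10.4% of all genes. In conventional dendritic cells 1 of 7 signalling partners was higher and 6 lower, none of them past the fold. Of all genes there, 51.1% were lower and 12.2% past the fold. Partners past the fold elsewhere were Prkcq in regulatory T cells (2.53, 1.38 to 5.004), Fcer1g in CD4 T cells (1.54, 0.919 to 2.65), Cblb (2.21, 1.18 to 4.46) and Arrb2 (0.569, 0.382 to 0.845) in macrophages, and Cblb (0.498, 0.275 to 0.892) and Ptpn11 (0.628, 0.327 to 1.21) in plasmacytoid dendritic cells. The shares of all genes past the fold were 15% in regulatory T cells, 18.2% in CD4 T cells, 17.4% in macrophages and 14% in plasmacytoid dendritic cells. In B cells, which held almost no receptor transcript, they were Itgb2 (1.81, 0.916 to 3.78), Fcer1g (1.83, 0.974 to 3.61) and Ptpn11 (2.07, 1.00 to 4.59), against 15.6% of all genes.

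Of 8 transcription factors tied to the receptors, 4 were higher and 4 lower in CD8 T cells, with a median ratio of 0.953. Tcf7, a factor of naive and memory-type T cells, was past the fold at 30.8 and 58.7 CPM, a ratio of 1.91 (1.70 to 2.14), and was the only 1 of the 8 to be so, against 5.67% of all genes. Eomes, a T-box factor of cytotoxic lymphocytes, had 63.6 and 55.6 CPM and thus a ratio of 0.875 (0.796 to 0.962). Tox and Batf, factors of chronically stimulated T cells, had ratios of 0.790 (0.746 to 0.836) and 0.779 (0.731 to 0.831), and Tbx21, which codes for T-bet, 1.15 (1.02 to 1.30). In NK cells 5 of 8 were higher with none past the fold, and Eomes had a ratio of 1.17 (1.10 to 1.24). The Cd226 ratio and the Eomes ratio were thus both below 1 in CD8 T cells, whereas Cd226 was near 1 and Eomes above 1 in NK cells. Eomes was picked from the 8 factors after the values were seen, and 4 of them went the other way in CD8 T cells. A link of any factor to Cd226 was not tested. Factors past the fold elsewhere were Eomes in monocytes (2.39, 1.08 to 5.64, on 10 and 22 UMIs), Batf in CD4 T cells (0.534, 0.333 to 0.852), Tbx21 in regulatory T cells (0.659, 0.346 to 1.27), Prdm1 in T cells without Cd8, Cd4 or Foxp3 (0.600, 0.338 to 1.04) and Foxo1 in melanoma cells (0.556, 0.286 to 1.04). Of all genes, 9.61% were past it in monocytes, 18.2% in CD4 T, 15% in regulatory T, 8.89% in the T cells without Cd8, Cd4 or Foxp3 and 10.4% in melanoma cells.

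The genes whose levels over the 11 classes of both libraries were most like those of a member were taken from 9936 genes by Pearson r of log2(CPM + 10), over 22 points that share their libraries and differ in depth. For Cd226 they included Il18r1 (0.939), Skap1 (0.922) and Ms4a4b (0.921). For Cd96 they were Cd160 (0.958), Ms4a4b (0.9502), Apol7e (0.946), Ifng (0.944) and F2r (0.944). For Tigit they were Sv2c (0.907), Pym1 (0.905), Nucb1 (0.889), Arl5a (0.889) and Penk (0.884), and the low Tigit counts limit this list. For Pvr they were Reep3 (0.933), Ube2l6 (0.915), Dennd5a (0.900), Gpx1 (0.892) and Ifitm2 (0.890). For Nectin2 they were Vat1 (0.967), Tmcc2 (0.964), Sept8 (0.961), Gdpd1 (0.958) and Cav2 (0.957). Il18r1, the receptor chain for interleukin-18, was at 69.7 and 90.7 CPM in CD8 T cells and at 152 and 169 CPM in NK cells. It was thus higher in knockdown CD8 T cells, where Cd226 was lower. For Il18r1 in CD8 T cells, a like pattern over classes thus did not go with a like difference between libraries. Reep3 and Ube2l6, listed first for Pvr, were higher in knockdown conventional dendritic cells, as Pvr was. Reep3 was at 68.6 and 86.9 CPM there, and Ube2l6 at 35.7 and 61.8 CPM. In CD8 T cells, where Pvr was also higher, Reep3 was higher and Ube2l6 lower. The other listed genes were not compared in this way.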

How the data were processed

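Live CD45+ cells of 1 control and 1 Decr2 knockdown tumour library were sequenced with a 10x 3′ kit. The deposited values are whole UMI counts per gene and barcode, which the authors obtained using Cell Ranger 6.1.2 and mm10, per the submitters' processing notes, where Seurat 4.3 is also named. The sources used here do not give the annotation release.

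Cells with at least 200 genes, 500 UMIs and at most 10% mitochondrial UMIs were kept, and the top Scrublet scores (scanpy 1.11.5) were removed at 0.8% per 1000 barcodes (1028 and 728 barcodes). Gates counted UMIs of marker genes per cell: for example at least 2 for T and NK cells, 3 for B cells, and 5 with at least 3000 CPM for melanoma cells. Gate thresholds were set on markers alone, after the data were seen, and cells that passed the gates of more than 1 lineage stayed without a class. T and NK cells counted as 1 lineage, and T cells could hold NK marker UMIs if T marker UMIs were more. Monocytes, macrophages, neutrophils and the other dendritic cells were 1 lineage, where a macrophage call replaced a monocyte or conventional dendritic one. Plasmacytoid dendritic cells and basophils could hold monocyte or conventional dendritic markers. The members and lists were chosen with earlier results of these data known. All members were named in every class compared, list genes where past the fold or, for related receptors and ligands, with at least 30 UMIs, and the 5 genes of most like pattern by a fixed rule, of which some are not reported here. Other list genes (integrin chains, phosphatases, transcription factors, Il18r1) were picked after their values were seen. Because each group had 1 library, there is no p-value, and each fold is a difference between libraries. The ratio scripts were tested on simulated Poisson counts for CD8 T cells: 95.9% of intervals over 10974 genes held the true ratio, and 97% of 2-fold higher and 95% of genes at 0.5 of the control passed the fold.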

Additional observations from a re-analysis of the deposited data

How the results depend on the processing

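The 22 ratios were recomputed under 12 settings: stricter and looser cell filters, doublets kept, gates on thinned cells, gates 1 UMI higher, clusters in place of gates, equal weight per cell, cells thinned to 2000 UMIs, scaling by the median gene, leaving out the top cell, leaving out cycling cells, and cells of 3000 to 12000 UMIs. The last setting was chosen after seeing the data. Of 258 values, 248 stayed within the interval of the main value. In melanoma cells Nectin2 turned to 1.09 with equal weight per cell and 1.06 with thinned cells, where Pvr moved to 1.42 and 1.48. Cd96 in CD8 T cells moved to 1.37 with thinned cells. With cells of 3000 to 12000 UMIs, Cd226 moved to 0.771 in CD8 T and 1.16 in NK cells, and Tigit to 1.23 in CD8 T cells. The cause was not tested. Cd226 in CD8 T cells ranged from 0.655 to 0.771 over all settings, and it passed the 1.5-fold line under some of them. Thinned to 1000 UMIs, the Cd96 share of CD8 T cells differed by -0.199 points and turned direction, and with no thinning by 13.7 points. With at least 100 UMIs, 2.22% of genes were past the fold in CD8 T and 4.39% in conventional dendritic cells. Of the 5 genes most like a member, between 1 and 3 were shared under log2(CPM + 1). Depth limits some values: regulatory T, CD4 T and plasmacytoid dendritic cells had under 50 UMIs of most members, and the melanoma cells of the libraries differed in depth. No paired analysis was possible because each group had 1 library.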
